A study of Mus musculus with 12 samples.

Results

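The genes of the neurofilament subunits (Nefl, Nefm and Nefh), of alpha-internexin (Ina) and of peripherin (Prph), which together encode the neuronal intermediate filaments, were followed across bulk RNA-seq libraries of the mouse dorsal raphe (DR). These 5 genes were taken by symbol from the 24421 genes listed in the count data, and all 5 were detected in all 12 libraries and passed the expression filter. Intermediate filaments are rope-like polymers of the cytoskeleton. In neurons, the light, medium and heavy neurofilament subunits assemble with alpha-internexin or peripherin into filaments that fill large myelinated axons, set their calibre and thereby their conduction velocity. In the brain alpha-internexin is the usual partner of the triplet, and peripherin is best known from sensory, motor and autonomic neurons and from some brainstem cells.

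The study asked how gene expression in the DR differs in mice in which serotonergic cells lack STAT3, a transcription factor activated by cytokine receptors. The STAT3 KO mice were Sert Cre/+; Stat3 fl/fl and the controls were littermates of the genotype Sert Cre/+; Stat3 fl/+, so that the controls also carried the Cre driver and 1 floxed Stat3 allele. All animals were single-housed and aged 8 to 16 weeks at experiment onset, on a mixed C57BL/6 and 129 background, with 4 controls (2 females, 2 males) and 8 STAT3 KO mice (4 females, 4 males). Exons 18 to 20 of Stat3 are removed only where the serotonin transporter gene drives Cre, whereas the libraries were made from a block of DR tissue with all of its cell types, 1 library per animal. In such bulk tissue, fewer cells of a type and less RNA per cell cannot be told apart.

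Libraries held 24379588 to 29645210 counts on genes, and differences between any pair of libraries were at least 5.24 times those of counting noise (chi-square per degree of freedom, 66 pairs). Levels are given as CPM, the usual read count normalised to the total gene counts of its library, and tests used log2 values scaled with edgeR's TMM factors, which lay between 0.985 and 1.01. Stat3, counted over the whole gene in all cells, averaged 65.9 ± 1.26 CPM (SD) over the 4 controls and 66.6 ± 2.90 CPM (SD) over the 8 STAT3 KO mice, which does not check the deletion. Tph2, the enzyme of serotonin synthesis that defines the DR, was at 539 to 883 CPM in every library. Of 15453 genes tested between genotypes with edgeR's quasi-likelihood test, 0 had an adjusted p below 0.05 (0%), 1184 had an unadjusted p below 0.05, and DESeq2 called 6 of 20026 genes (0.03%). One library, control 4, stood apart in genes of forebrain excitatory neurons, with a mean centred log2 CPM of 1.91 over that list against -0.60 to 0.57 in the other 11 libraries. The genotype differences of the 5 genes are therefore also given without it, as are those of gene lists that it moved by over 1.5 times or across 0.

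Nefl and Nefm lie side by side on chromosome 14 of GRCm38, Nefl (ENSMUSG00000022055.7) at 68083863 to 68089095 on the plus strand and Nefm (ENSMUSG00000022054.11) at 68082590 to 68124846 on the minus strand in GENCODE vM21. The long span of Nefm comes from 1 of its 2 transcripts, Nefm-202, whose exons share 1108 bases with those of Nefl. These are 32.8% of the exon bases of Nefl and 19.2% of those of Nefm. Whether the counting used strand is not given in the sources used here, so reads from this stretch may have been assigned to neither gene or to either, and the levels of this pair carry that uncertainty. Nefh (ENSMUSG00000020396.8) lies on chromosome 11 (4938754 to 4948064, minus strand), Ina (ENSMUSG00000034336.3) on chromosome 19 (47014698 to 47025327, plus strand) and Prph (ENSMUSG00000023484.14) on chromosome 15 (99055174 to 99058978, plus strand).

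Of the 5 genes, Ina and Prph were matched in the RefSeq promoter table, and Nefl, Nefm and Nefh were not. Both promoters are shown, since these 2 genes differed in how they varied across the libraries. Each run is the 250 bases before the RefSeq start (build GRCm38.p6, plus strand, chr19:47014431-47014680 for Ina and chr15:99054924-99055173 for Prph), with matches to 5 motifs in capitals. The motifs searched on both strands were the TATA box TATAAA, the STAT motif TTCNNNGAA, the Sp1 motif GGGCGG, the CCAAT box CCAAT and the cyclic AMP response element TGACGTCA.
Ina: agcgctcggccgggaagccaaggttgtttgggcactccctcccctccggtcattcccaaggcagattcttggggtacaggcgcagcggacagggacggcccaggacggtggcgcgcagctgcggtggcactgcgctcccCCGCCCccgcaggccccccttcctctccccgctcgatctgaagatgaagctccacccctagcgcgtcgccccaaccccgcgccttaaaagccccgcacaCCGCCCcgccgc
Prph: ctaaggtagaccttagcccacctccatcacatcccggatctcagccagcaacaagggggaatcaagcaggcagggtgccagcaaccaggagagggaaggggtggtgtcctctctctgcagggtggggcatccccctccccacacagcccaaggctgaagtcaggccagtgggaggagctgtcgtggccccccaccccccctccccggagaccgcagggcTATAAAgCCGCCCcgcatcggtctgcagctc
The Prph window had a TATAAA that began 31 bases before the start, and a GGGCGG match on the minus strand that began 24 bases before it. The Ina window held 2 GGGCGG matches on the minus strand, 111 and 12 bases before the start. TATAAA was found in 12.4% and GGGCGG in 32.7% of 32851 RefSeq promoter windows of the same length, TTCNNNGAA in 7.02%, CCAAT in 33.9% and TGACGTCA in 1.55%. The GC content was 70.8% in the Ina window and 65.2% in the Prph window. These matches describe the letters of the windows only.

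Levels of different genes were compared per kilobase of exon. Nefl was the most abundant of the 5 with 297 ± 52.9 CPM per kb (SD, n = 12), followed by Nefm with 181 ± 34.0, Nefh with 127 ± 22.9, Ina with 78.6 ± 7.57 and Prph with 11.9 ± 1.08 CPM per kb. This order held within each of the 12 libraries for every pair of genes. The place of Nefm depended on the transcript: with the 3334 bases of its first listed transcript in place of the 5782 bases of all its exons it was at 314 ± 59.0 CPM per kb and above Nefl in 11 of 12 libraries. Together the 5 genes took 0.217% to 0.389% of all gene counts, lowest in a STAT3 KO mouse and highest in a control. The levels of the triplet also varied more between animals than those of the other 2 genes. The highest library was 1.85 times the lowest for Nefl, 1.95 times for Nefm and 1.76 times for Nefh, against 1.46 times for Ina and 1.31 times for Prph.

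**Figure D1:**
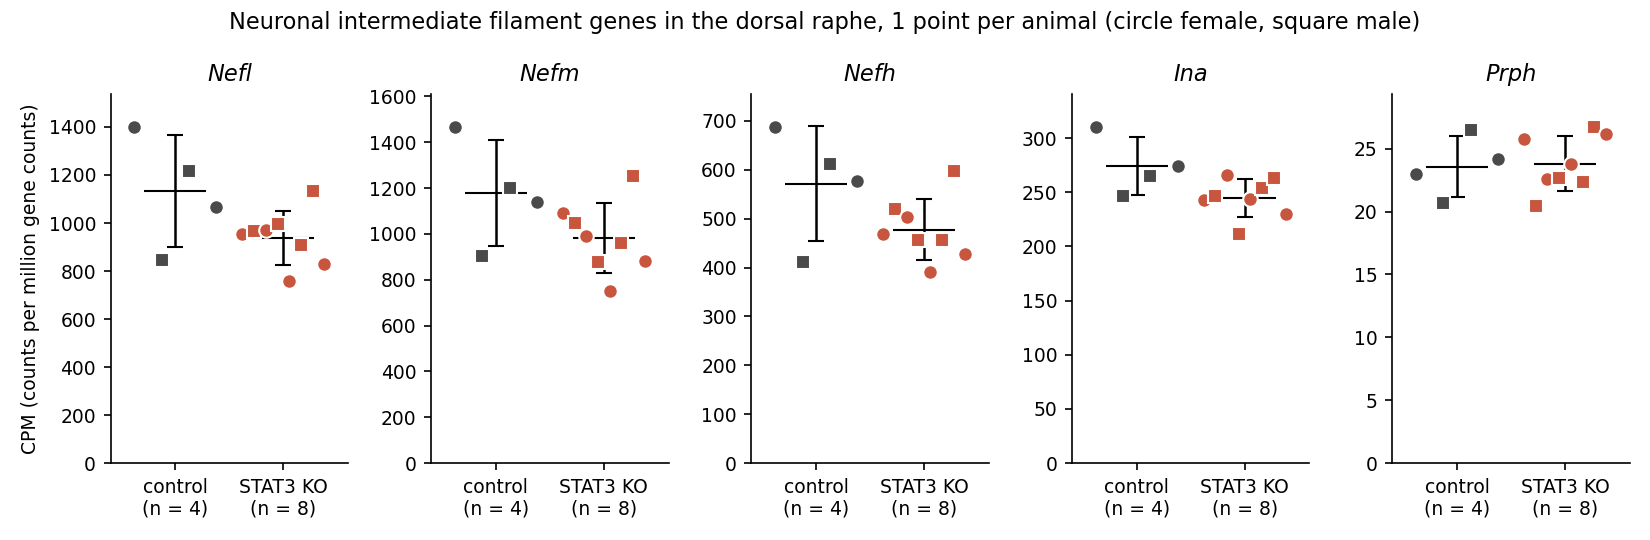
CPM of the 5 genes in each animal (circles females, squares males), with bars for the mean ± SD of 4 controls and 8 STAT3 KO mice and each axis starting at 0. The points of the genotypes overlap in all 5 panels, and the spread of the controls is wide for Nefl, Nefm and Nefh and narrow for Ina and Prph.

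The first comparison was between genotypes. Nefl, the light subunit on which the assembly of the filament depends, was at 1066 CPM in control 13, 847 in control 4, 1399 in control 3 and 1215 in control 11. In STAT3 KO mice it ranged from 757 (STAT3 KO 10) over a median of 959 to 1132 CPM (STAT3 KO 15). Control 3 and control 11 lay above all STAT3 KO mice, while control 4 lay below 6 of them, so the groups overlapped. The mean over the 4 controls was 1132 ± 234 CPM (SD), and that over the 8 STAT3 KO mice 939 ± 112 CPM (SD). The log2 fold change was -0.29 (standard error 0.11, 95% confidence interval -0.53 to -0.052), with an adjusted p of 0.615 and an unadjusted p of 0.0205 in edgeR's quasi-likelihood test. The exact permutation test (two-sided, 495 splits into 4 and 8 animals) gave p = 0.0768.

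Nefm, the medium subunit, whose long tail carries phosphorylation sites and spaces the filaments, was at 1141 CPM in control 13, 902 in control 4, 1466 in control 3 and 1199 in control 11, and at 751 to 1251 CPM (median 976) in STAT3 KO mice. Control 3 was again the highest library and STAT3 KO 10 the lowest, with STAT3 KO 15 above 3 of the 4 controls. The log2 fold change of -0.28 (standard error 0.12, interval -0.55 to -0.021) had an adjusted p of 0.633 (unadjusted p = 0.0361) in edgeR's test and an exact permutation p of 0.0970. Nefh, the heavy subunit that appears last in the maturation of axons, was at 576 CPM in control 13, 411 in control 4, 687 in control 3 and 613 in control 11. In STAT3 KO mice it was at 390.2 to 597 CPM (median 463). Control 4 lay below all STAT3 KO mice but STAT3 KO 10, and control 3 and control 11 above all of them. Its log2 fold change was -0.28 (standard error 0.12, interval -0.53 to -0.032), with an adjusted p of 0.620 (unadjusted p = 0.0297) in edgeR's test and an exact permutation p of 0.0990. For each of these 3 genes, 7 of 8 STAT3 KO mice were below the control mean.

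Ina, whose product co-assembles with the triplet in central neurons, was at 274 CPM in control 13, 246 in control 4, 310.1 in control 3 and 265 in control 11. In STAT3 KO mice it was at 212 (STAT3 KO 8) to 266 CPM (STAT3 KO 7), with a median of 245. All 8 STAT3 KO mice were below the control mean, and 4 of them were below every control. The means of 274 ± 26.7 CPM (SD, n = 4) and 245 ± 17.7 CPM (SD, n = 8) gave the smaller log2 fold change of -0.19 (standard error 0.065, interval -0.32 to -0.047), with an adjusted p of 0.615 (unadjusted p = 0.0119) in edgeR's test. Ina was the member with an exact permutation p below 0.05 (p = 0.0263).

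Prph was at 24.2 CPM in control 13, 20.7 in control 4, 23.0 in control 3 and 26.5 in control 11, and at 20.5 to 26.7 CPM (median 23.2) in STAT3 KO mice. The ranges of the genotypes nearly coincided, and 4 of 8 STAT3 KO mice were below the control mean. The log2 fold change was -0.0072 (standard error 0.077), with a 95% confidence interval from -0.17 to 0.16 that covers a fold of 0.889 to 1.11 (adjusted p = 0.997 in edgeR's test, exact permutation p = 0.929). It was -0.062 without control 4 and 0.057 without control 11. Prph rested on 573 to 792 counts per library, against 21927 to 38029 for Nefl.

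None of the 5 genes passed the adjusted threshold with edgeR's quasi-likelihood test (0 of 5, and 4 of 5 at an unadjusted p below 0.05, all 4 lower in STAT3 KO mice), nor with DESeq2 (0 of 5, and 3 of 5 lower at an unadjusted p below 0.05, as were 3.26% of all genes there). Over all genes tested with edgeR's quasi-likelihood test, 4.05% had an unadjusted p below 0.05 with a lower level in STAT3 KO mice and 3.61% with a higher one. An exact permutation p below 0.05 with a lower level was reached by 1 of the 5 genes and by 3.73% of all genes. For 0 of the 5 genes were all STAT3 KO mice below all controls, and this was the case for 0.239% of all genes. The median log2 fold change of all genes was -0.0011. Because 4 of the genes varied together across the libraries, their 4 values are not separate results.

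Single controls decided the size of these differences. Without control 3, the highest library for 4 of the 5 genes, the log2 fold changes shrank to -0.17 for Nefl, -0.16 for Nefm, -0.18 for Nefh and -0.12 for Ina, and 0 of 5 genes had an unadjusted p below 0.05 in edgeR's test (lower at such a p were 2.12% of all genes). Without control 4 they grew to -0.41, -0.39, -0.41 and -0.23, and the exact permutation p, now over 165 splits, was 0.0121 for Nefl, 0.0242 for Nefm, 0.0121 for Nefh and 0.00606 for Ina, while 5% of all genes were lower at an exact permutation p below 0.05. The lowest adjusted p of the triplet was then 0.190. Without STAT3 KO 15 the same 4 genes also had an exact permutation p below 0.05 (3.71% of all genes), and without control 13 or control 3 none had (2.67% and 2.11% of all genes). The number of genes with an unadjusted p below 0.05 in edgeR's test was 2 without control 13 (2.81% of all genes), 1 without control 11 (3.07%), 2 without STAT3 KO 10 (3.05%) and 2 without STAT3 KO 16 (3.6%).

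**Figure D2:**
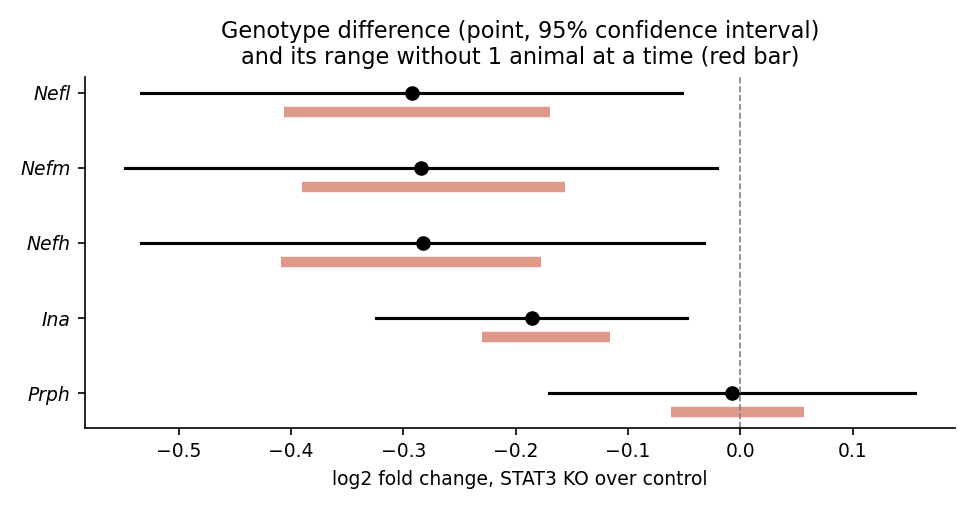
Log2 fold change of STAT3 KO mice over controls for the 5 genes from edgeR's quasi-likelihood test (points) with its 95% confidence interval (black lines, 4 controls and 8 STAT3 KO mice) and its range when each animal was left out in turn (red bars). The values of Nefl, Nefm, Nefh and Ina stay below 0 whichever animal was left out, while the bar of Prph runs from -0.062 to 0.057.

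The sexes were then compared, since both genotypes held females and males. Between males and females without regard to genotype, edgeR's quasi-likelihood test called 0.0841% of all genes at an adjusted p below 0.05 and 7.2% at an unadjusted p below 0.05. None of the 5 genes was among either, and their log2 differences, males minus females, lay between -0.063 for Ina and 0.049 for Nefl. Nefl was at 1066 and 1399 CPM in the 2 female controls and at 757 to 969 CPM in the 4 female STAT3 KO mice, which did not overlap. In males it was at 847 and 1215 CPM in the controls and at 909 to 1132 CPM in STAT3 KO mice, which lay between them. Nefm and Nefh had the same arrangement in females (1141 and 1466 against 751 to 1093 CPM, and 576 and 687 against 390.2 to 503 CPM), as had Ina (274 and 310.1 against 230 to 266 CPM). In females all STAT3 KO mice were thus below both controls for 4 of the 5 genes, as for 11.6% of all genes tested, and in males for 0 of the 5 and 4.15% of all genes.

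The test of the difference itself, the interaction of genotype and sex, gave a log2 value of 0.46 for Nefl (standard error 0.21, unadjusted p = 0.0454), 0.47 for Nefm (unadjusted p = 0.0623), 0.50 for Nefh (unadjusted p = 0.0364), 0.19 for Ina and -0.084 for Prph in edgeR's test. The adjusted p was at least 0.907 for all 5. At an unadjusted p below 0.05 there were 2 of the 5 genes and 5.49% of all genes, and at an adjusted p below 0.05 there were 0 of the 5 and 0% of all genes. The count of 2 became 0 without control 3, control 4 or STAT3 KO 6, 10, 15 or 16, and 3 without control 11, control 13 or STAT3 KO 5 or 8. For this test the share of all genes was computed with all animals only. The counts with 1 animal left out have no share beside them and are no result about the 5 genes. Single animals also moved the values. For Nefl it was 0.22 without control 4 and 0.75 without control 11, for Nefh 0.23 and 0.82, for Nefm 0.28 without control 3 and 0.70 without control 11, and for Ina 0.091 without control 3 and 0.28 without control 13.

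Across the 12 libraries the 3 neurofilament genes rose and fell together. In log2 CPM, Pearson's r was 0.93 for Nefl and Nefm (Spearman's rho 0.86), 0.97 for Nefl and Nefh (rho 0.92) and 0.95 for Nefm and Nefh (rho 0.95). For the last pair the permutation p was 1e-05, the smallest that 100000 resamples can give, and adjusted over the 10 pairs of genes all 3 were at 0.0001. Control 3 was highest and STAT3 KO 10 lowest in all 3 genes. Without the 2 libraries farthest from the median of the first gene, r was still 0.84, 0.94 and 0.91. Within the 8 STAT3 KO mice alone r was 0.86, 0.93 and 0.92, with exact permutation p-values, adjusted over the 10 pairs, of 0.0306, 0.0130 and 0.0130.

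Ina followed the triplet less closely. Its r was 0.71 with Nefl, 0.78 with Nefm and 0.78 with Nefh over 12 libraries, with permutation p-values adjusted over 10 pairs of 0.0177, 0.00666 and 0.00577 and rho of 0.67 to 0.76. Without the 2 farthest libraries these values were 0.52, 0.72 and 0.59. Within the 8 STAT3 KO mice r was 0.28, 0.52 and 0.52, and none of these passed (exact permutation p adjusted over 10 pairs at least 0.382). Without control 3, r fell to 0.49, 0.64 and 0.64, and only the 3 pairs within the triplet passed, against 6 of 10 pairs with all animals.

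For Prph no relation to the other 4 genes passed. Its r was 0.27 with Nefl, 0.30 with Nefm, 0.29 with Nefh and 0.090 with Ina, with rho of 0.10 to 0.32 and permutation p-values adjusted over 10 pairs of at least 0.443. Without the 2 farthest libraries r was 0.47, 0.52, 0.22 and 0.083. STAT3 KO 16, among the 3 lowest libraries in Nefl, Nefm and Nefh, was the third highest in Prph, and control 3, the highest in the other 4 genes, was the seventh in Prph. Of 11861 other genes with a mean of at least 5 CPM, 2566 had a higher r with the mean of the triplet than Prph had, and 161 had a higher r than Ina.

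**Figure D3:**
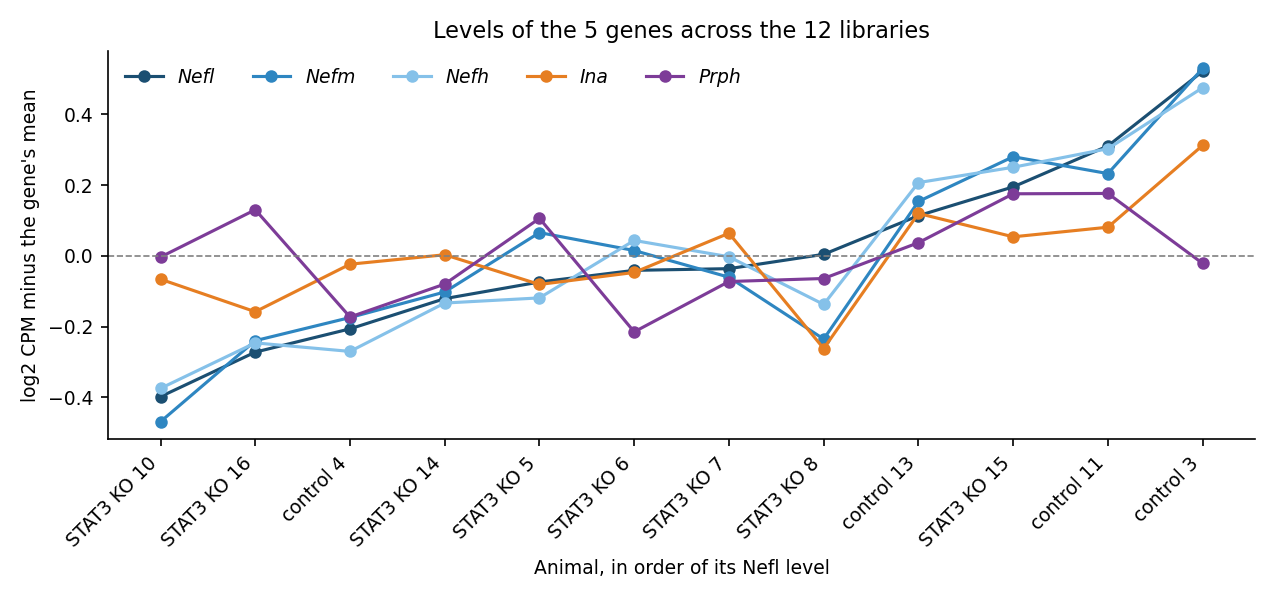
Log2 CPM of the 5 genes minus each gene's mean over the 12 libraries, with the animals in order of their Nefl level from lowest (STAT3 KO 10) to highest (control 3). The lines of Nefl, Nefm and Nefh run together, Ina follows at a smaller amplitude, and Prph follows them less.

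The composition of the triplet was described by ratios of CPM within a library. Nefm over Nefl was 0.987 to 1.07 in controls and 0.882 to 1.15 in STAT3 KO mice, and Nefh over Nefl 0.485 to 0.541 and 0.460 to 0.538. The log2 differences between genotypes were -0.00086 and 0.0091 (exact permutation p = 0.990 and p = 0.853, SD over all libraries 0.097 and 0.067). STAT3 KO 8 had the lowest value of both ratios. The ratio of Ina to Nefl differed by 0.094 (exact permutation p = 0.434). That of Prph to Nefl was 0.0165 to 0.0245 in controls and 0.0213 to 0.0317 in STAT3 KO mice, a log2 difference of 0.27 (exact permutation p = 0.0848, and 0.339 adjusted over the 4 ratios). Its exact permutation p was below 0.05 without control 4 (0.34, p = 0.0485) or without STAT3 KO 6 (0.31, p = 0.0455), and it was 0.279 without control 3 (0.15). The log2 difference of the ratio of Ina to Nefl was 0.038 without control 11, 0.045 without control 3 and 0.18 without control 4.

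Genes around the filaments were then examined in lists of known function, chosen with earlier results of these data known. Over all genes tested, 50.6% had a lower level in STAT3 KO mice, and 4.05% a lower level with an unadjusted p below 0.05. Among 18 genes of filament linkers, axonal transport and filament turnover, 17 were lower and 1 higher in STAT3 KO mice, 5 of the lower ones with an unadjusted p below 0.05, with a median log2 fold change of -0.064. They included Kif5c, a kinesin heavy chain (-0.14, from 941 ± 37.1 to 866 ± 36.4 CPM), and Klc2, a kinesin light chain (-0.14). Of 18 genes of the axonal microtubule and spectrin cytoskeleton, 15 were lower (2 with an unadjusted p below 0.05, median -0.053), among them Ank3, the ankyrin of the axon initial segment (-0.13), and Tuba4a, an alpha-tubulin (-0.088). Of the 8 other intermediate filament genes 5 were higher and 3 lower, with a median of 0.018 (0.0047 without control 11, 0.056 without control 3 and 0.033 without control 4). Vim, the vimentin gene of glia and vessels, was at 34.5 to 38.4 CPM in controls and 38.8 to 55.5 CPM in STAT3 KO mice (log2 fold change 0.31, adjusted p = 0.615 in edgeR's test, exact permutation p = 0.0101). The lamin gene Lmnb1 had a log2 fold change of 0.082, and Gfap, the astrocyte filament, of 0.19. Adjusted over all genes, 0 genes of these lists passed in edgeR's test.

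Large and fast-firing neurons are rich in neurofilaments, and 13 genes of such neurons were listed. The earlier results known when this list was written included several of its genes, so its direction is no independent evidence. All 13 were lower in STAT3 KO mice, 11 of them with an unadjusted p below 0.05 (4.05% of all genes), with a median log2 fold change of -0.27 (-0.36 without control 4 and -0.18 without control 3), against -0.0011 for all genes. Of 12 pan-neuronal genes 9 were lower and 3 higher, 2 and 1 of them with an unadjusted p below 0.05, with a median of -0.061 (-0.035 without STAT3 KO 8 and -0.037 without control 4). Examples from the 13 genes of large and fast-firing neurons were Scn4b, the sodium channel beta subunit of resurgent current (261 ± 62.5 against 189 ± 25.2 CPM, log2 fold change -0.49), and Cplx1, a complexin of fast transmitter release (1029 ± 128 against 885 ± 52.5 CPM, -0.24). None passed the adjusted threshold in edgeR's test (0 of 13). Of the pan-neuronal genes, Snap25 and Nsf, both of vesicle fusion, had log2 fold changes of -0.17 and -0.12. Taken relative to the mean of the pan-neuronal list, the log2 difference between genotypes was -0.23 for Nefl, -0.23 for Nefm, -0.22 for Nefh, -0.14 for Ina and 0.038 for Prph. These values were -0.40, -0.39, -0.41, -0.22 and -0.055 without control 4, and -0.099, -0.098, -0.10, -0.054 and 0.050 without control 3. Taken relative to the list of large and fast-firing neurons it was 0.0099 for Nefl, 0.0091 for Nefm, 0.019 for Nefh, 0.10 for Ina and 0.28 for Prph. Since that list was written with results of several of its genes known, values near 0 relative to it are no independent evidence either. The part of such neurons in the levels of the triplet was not tested. With 1 animal left out, the values of the triplet lay on both sides of 0 (-0.027 to 0.046 for Nefl, -0.027 to 0.044 for Nefm and -0.015 to 0.054 for Nefh), while that of Ina was 0.071 without control 3 and 0.17 without control 4, and that of Prph 0.18 and 0.34.

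Over 12 libraries the same list had the highest r with Nefl of the 14 lists. Because it was written with values of some of its genes known, this is given as a description without a test. Between Nefl and its mean centred log2 CPM, r was 0.89 and rho 0.76, and r was 0.82 without the 2 farthest libraries, control 13 and control 3. Within the 8 STAT3 KO mice r was 0.68, below the 0.79 of the axonal microtubule and spectrin list. Control 3 had the highest score of the list and STAT3 KO 10 the lowest, as for Nefl itself. With the dopaminergic list r was 0.79 (permutation p adjusted over 28 relations 0.0398), but 0.39 without control 3 and STAT3 KO 10, so that this relation rested on those libraries. Control 3 had a dopaminergic score of 0.69 and STAT3 KO 10 of -0.59, against -0.31 to 0.25 in the other 10, and the part of this list in the levels of Nefl was not tested. The list for the axonal microtubule and spectrin cytoskeleton had r = 0.71 (permutation p adjusted over 28 relations 0.0840) and that of linkers and transport 0.66 (0.124), which were 0.73 and 0.36 without the 2 farthest libraries. Negative values were found for the noradrenergic list (r = -0.65, adjusted permutation p 0.124, and -0.40 without the 2 farthest libraries), the other intermediate filaments (-0.54, 0.319, and -0.47) and the astrocyte list (-0.50, 0.394, and -0.48). With pan-neuronal genes r was 0.00017, and 0.53 without control 4 and STAT3 KO 6, and within the 8 STAT3 KO mice 0.68 (exact permutation p = 0.0596). Besides those of the list of large and fast-firing neurons, 1 of the relations of Nefl and Prph to the lists passed over 12 libraries, that of Nefl to the dopaminergic list.

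**Figure D4:**
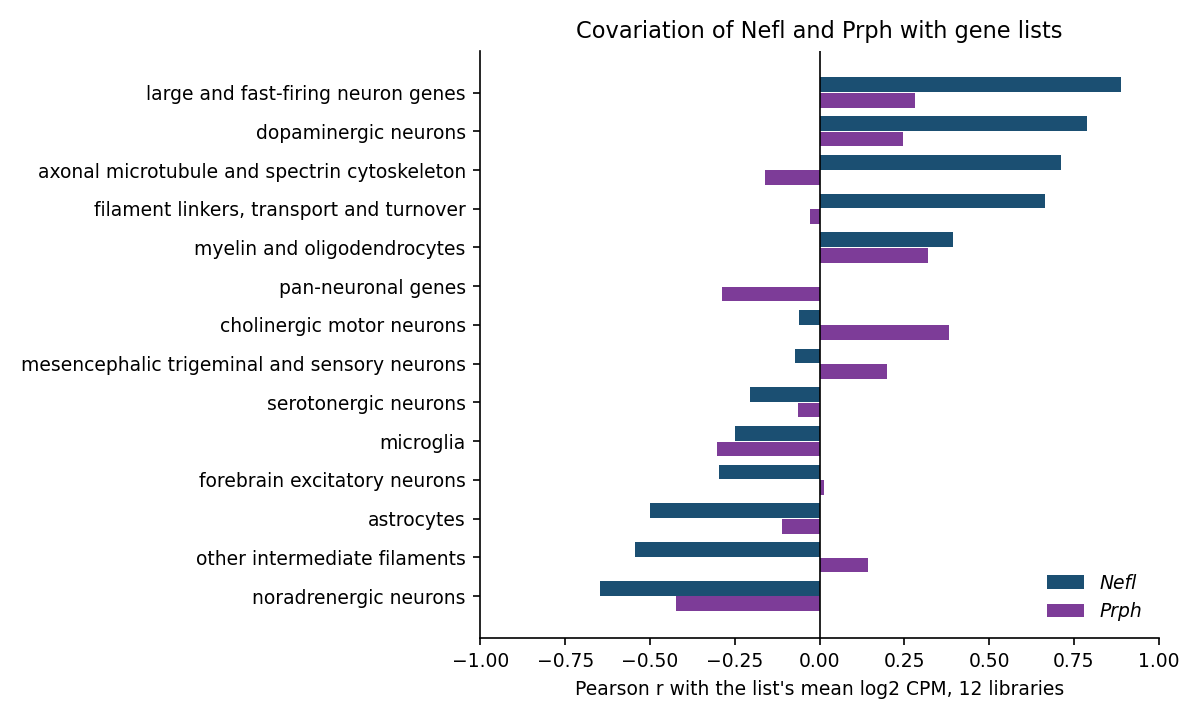
Pearson's r over 12 libraries between the log2 CPM of Nefl (blue) or Prph (purple) and the mean centred log2 CPM of each of 14 gene lists, ordered by the value of Nefl. Nefl reaches 0.89 with the genes of large and fast-firing neurons, and no bar of Prph goes beyond -0.42 or 0.38.

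Markers of other cells that the tissue block could hold were read for the same animals. The 9 genes of myelin and oligodendrocytes were all lower in STAT3 KO mice (50.6% of all genes), 1 of them with an unadjusted p below 0.05 (4.05% of all genes), with a median of -0.048 (-0.094 without control 4 and -0.011 without control 13, summed CPM 9891 to 10862 in controls and 8659 to 11832 in STAT3 KO mice), with Mag at -0.13 and Ermn at -0.10. Of the 9 serotonergic genes 7 were higher and 2 lower (median 0.031, En1 0.17, Gata3 0.093, Slc6a4 -0.075), and the median was -0.042 without control 3 and 0.13 without control 4. The 8 astrocyte genes had a median of 0.018 (Slc1a2 -0.13, Slc1a3 0.28) and the 8 microglial genes of -0.030 (Tmem119 -0.088, C1qa 0.085). With 1 animal left out the astrocyte median ranged from -0.0094 (without STAT3 KO 8) to 0.060 (without control 11) and the microglial one from -0.045 (without STAT3 KO 8) to 0.0058 (without control 4). The 6 dopaminergic genes had a median of -0.22 (-0.36 without control 4, -0.34 without control 11 and -0.057 without control 3), with Slc6a3 at 9.77 to 112 CPM and Th at 24.3 to 85.5 CPM over all libraries, and the 4 noradrenergic genes tested of 0.38, with Dbh at 0.506 to 24.7 CPM. Of the 4 noradrenergic genes 3 were higher and 1, Th, was lower (-0.38). The lists share genes: Th is in the dopaminergic and noradrenergic lists, and Ddc and Slc18a2 are in the dopaminergic and serotonergic lists. Leaving out 1 animal moved the noradrenergic median between 0.080 (without STAT3 KO 14) and 0.59 (without control 4), with 0.56 without control 13 and 0.19 without control 3. With DESeq2, which was run without the expression filter and so on all 5 genes of the list, it was 0.74, a change of both test and gene set. For 10 forebrain excitatory genes tested the median was -0.67 with all animals (Mef2c -1.12, Tbr1 -2.11) and 0.19 without control 4. With an unadjusted p below 0.05 in edgeR's test, 1 serotonergic and 1 astrocyte gene were higher (3.61% of all genes), and 1 astrocyte, 1 dopaminergic and 4 forebrain genes lower (4.05% of all genes). These 4 forebrain genes were called with control 4 included, and their exact permutation p was at least 0.152. These lists had 0 genes with an adjusted p below 0.05 in edgeR's test, and their part in the levels of the filament genes was not tested.

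Prph is itself a marker of motor and sensory neurons, and other genes of these lists are given in CPM, which is not corrected for length. Isl1 was at 1.72 to 3.96 CPM, Calcb at 1.62 to 3.78 CPM and Avil at 2.30 to 8.79 CPM, while Tlx3 was at 0.0718 to 0.805 CPM, with 3 counts equal to 0.101 to 0.123 CPM, a floor for counting error only. Chat, the enzyme of acetylcholine synthesis, was at 9.43 to 33.4 CPM and Slc5a7, the choline transporter, at 36.9 to 119 CPM. Etv1 and Ntrk3, which many other neurons also express, were at 31.7 to 50.6 and 67.4 to 78.6 CPM. The list of 7 cholinergic motor neuron genes had a median log2 fold change of 0.057 (-0.020 without STAT3 KO 14 to 0.16 without STAT3 KO 6, and 0.11 without control 4) and that of sensory and mesencephalic trigeminal neurons, of which 8 of 9 genes were tested, of 0.11 (0.058 without STAT3 KO 8 to 0.22 without control 11), both with Prph among them. With DESeq2, run without the expression filter and so on all 9 genes of the latter list, its median was -0.0064, the value of Prph itself. Of its 8 genes tested with edgeR 4 were higher, among them Avil (0.67) and Tlx3 (1.18), and 4 lower, among them Pou4f1 (-0.65). Without Prph, r between Prph and these lists was 0.38 and 0.20 (permutation p adjusted over 28 relations 0.638 and 0.788). Within the 8 STAT3 KO mice Prph followed the forebrain excitatory list (r = 0.91, exact permutation p = 0.000719, adjusted over 28 relations 0.0201). Over all 12 libraries that r was 0.013, and 0.78 without control 4 and STAT3 KO 16.

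The genes most like the triplet were looked up over the 11861 other genes with a mean of at least 5 CPM, as a description without a test, since the highest of so many values are high by selection. The 10 with the highest r with the mean of Nefl, Nefm and Nefh were Cabp7, Esyt1, Scn4b, Stk39, Asb13, Acan, Cplx1, Sass6, Kcna1 and Spp1, with r from 0.92 to 0.94. Among them, Cabp7 encodes a calcium-binding protein, Esyt1 a tether between endoplasmic reticulum and plasma membrane, Acan the aggrecan of perineuronal nets and Kcna1 a potassium channel of the juxtaparanode. Scn4b, Cplx1, Kcna1 and Spp1 also belong to the list of large and fast-firing neurons. An r of at least 0.9 was reached by 20 of the 11861 genes. Within the 8 STAT3 KO mice the 10 genes had r from 0.83 to 0.93.

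The 5 genes most like Ina were Iqsec1 (r = 0.96), Ank1, Scn8a, Klc2 and Adarb1, with r of at least 0.94. They encode an exchange factor of small GTPases at synapses, an ankyrin, a sodium channel of the axon initial segment, a kinesin light chain and an RNA-editing enzyme. For Prph they were Ebf1 (r = 0.92), Otx2 (0.86), Fam76b (0.80), Ifngr2 (0.79) and Tpst1 (0.78). Ebf1 and Otx2 encode transcription factors, the latter a homeodomain protein of the midbrain, and Ifngr2 encodes a subunit of the interferon gamma receptor. Ebf1 was at a mean of 23.5 CPM with a log2 fold change between genotypes of 0.025, near that of Prph, and 1 of 11861 genes reached an r of 0.9 with Prph. STAT3 KO 6 and control 4 were the 2 lowest libraries in both Prph and Ebf1.

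**Figure D5:**
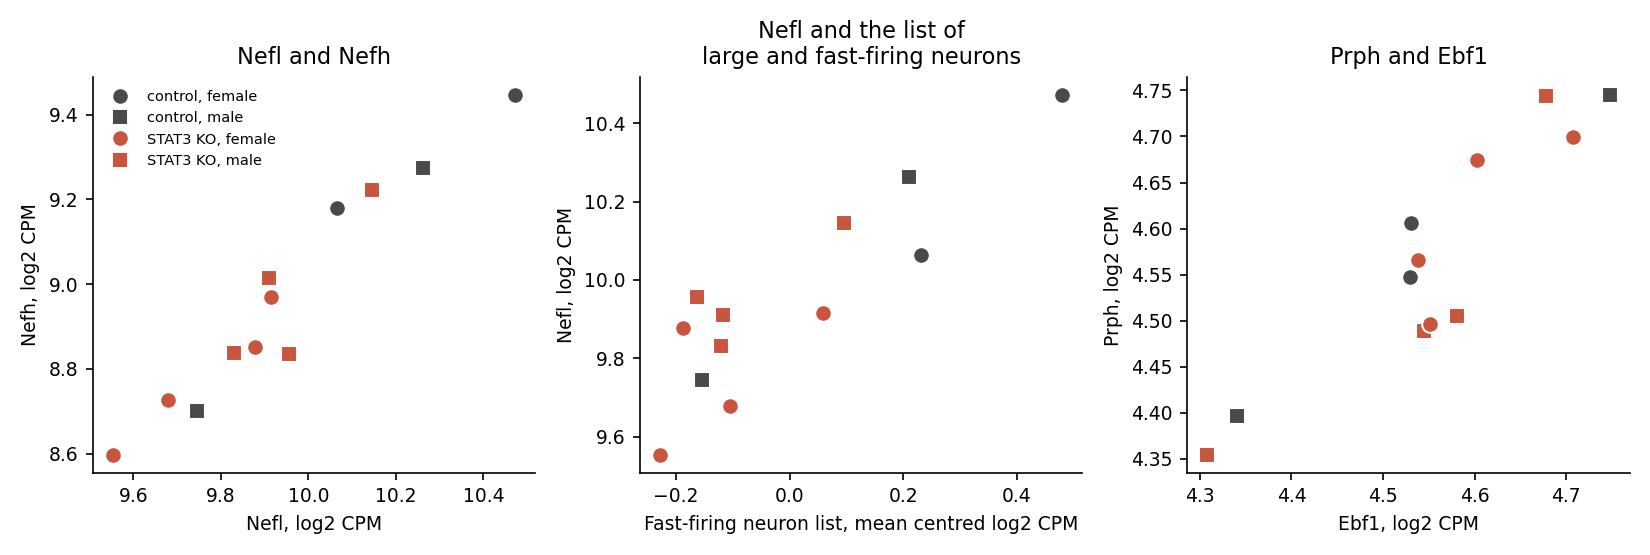
Log2 CPM of Nefh against Nefl (left), of Nefl against the mean centred log2 CPM of 13 genes of large and fast-firing neurons (middle) and of Prph against Ebf1 (right), 1 point per animal (black controls, red STAT3 KO mice, circles females, squares males). Points follow a line with r of 0.97, 0.89 and 0.92, with control 3 at the upper end of the left and middle panels but not of the right one.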

How the data were processed

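RNA of the DR was extracted by the authors from 4 controls and 8 STAT3 KO mice and sequenced as single 75-base reads, 1 library per animal. The authors mapped the reads with STAR 2.5.0b to mm10, and the deposited files hold raw counts per gene symbol for each library. The read counter, the annotation and the use of strand are not given in the sources used here. The lines for reads outside genes (13.4% to 15.3% of the listed reads) and for ambiguous reads (0.507% to 0.562%) were left out of all totals. Genotype, sex and animal numbers came from the labels. Those numbers do not recur between the genotypes, and p-values measure the spread between animals.

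CPM was computed over all gene counts. Genotypes were compared with the quasi-likelihood test of edgeR 4.0.16 (two-sided, R 4.3.3, TMM, filterByExpr by genotype with a minimum count of 10, not required in every library, and a minimum total count of 15, Benjamini-Hochberg adjustment over 15453 genes, threshold 0.05). A prior count of 2 was added for log2 CPM. The 5 genes were also compared by a two-sided exact permutation test, whose smallest p is 0.00202. Correlations over 12 libraries used 100000 permutations, and those over 8 libraries were exact. The interaction model held genotype, sex and their product. Alternatives were DESeq2 1.42.0, limma 3.58.1 (voom with quality weights), edgeR's likelihood ratio test, RLE factors, other filters, another prior count, mean CPM, an additive sex term and leaving out each animal in turn. The tests were also tested on simulated data. Plain CPM, transcript length, leaving out 3 libraries together and leaving out each animal for the relative levels were chosen after seeing the data. Other computations used Python 3.11.15 with numpy 2.4.6, pandas 2.3.3 and scipy 1.17.1.

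The genes and the 14 lists were chosen with earlier results of these data known. The text names all 5 genes, the 2 genes of each list with the lowest unadjusted p, the 10 genes most like the triplet and 5 each for Ina and Prph by r, and Stat3 and Tph2 as checks. Gfap, Chat, Slc5a7, Etv1, Ntrk3, Pou4f1, Ddc and Slc18a2, outside this rule, were chosen after their values were seen. Slc6a4, also a check, had a log2 fold change of -0.075. Positions are those of GENCODE vM21, matched by symbol (23334 of 24421 genes). Promoters are from RefSeq and were read for Ina and Prph. The floor of 3 counts covers counting error only, while the confidence intervals of fold changes carry the spread between animals. One gene of the myelin list is not reported here and was left out of that list, but not of the tests over all genes.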

Additional observations from a re-analysis of the deposited data

How the results depend on the processing

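In 20 alternatives to the test of genotype, 0 of the 5 genes passed the adjusted threshold, and Nefl, Nefm, Nefh and Ina stayed lower in STAT3 KO mice. Over all genes, DESeq2 called 6, edgeR's likelihood ratio test 3 and the quasi-likelihood test 2 when control 4 and STAT3 KO 8 and 16 were left out together, and 0 to 1 with 1 animal left out. Leaving out 1 animal at a time, 0 to 4 of the 5 genes had an unadjusted p below 0.05 in edgeR's test, 0 to 4 in the exact permutation test and 0 to 3 in the interaction with sex (whose share of all genes was computed with all animals only), 0 to 1 of 4 ratios and 3 to 6 of 10 pairs passed. The cause of these changes was not tested.

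Values near 0 changed sign. With 1 animal left out at a time, the log2 fold change of Prph was -0.062 to 0.057 (-0.067 to 0.049 as a difference of means) and its interaction with sex -0.25 to 0.11. The sex difference was -0.011 to 0.14 for Nefl, -0.080 to 0.091 for Nefm and -0.047 to 0.13 for Nefh. The ratio of Nefm to Nefl differed by -0.027 to 0.033 and that of Nefh to Nefl by -0.010 to 0.042. Relative to pan-neuronal genes Prph differed by -0.055 to 0.096, and relative to large and fast-firing neurons Nefl by -0.027 to 0.046, Nefm by -0.027 to 0.044 and Nefh by -0.015 to 0.054. On plain CPM the difference of Prph was 0.015. With RLE factors r of Nefl with pan-neuronal genes was -0.026. With the first listed transcript Nefm was at 314 CPM per kb. The mice were littermates, but the labels used here do not give the litter, so no pairing or blocking by litter was possible. Each gene had at least 573 counts in every library.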
